A study of Mus musculus with 8 samples.

Results

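The formins described here are 10 genes chosen by name, namely Fhod1, Fhod3, Daam1, Daam2, Fmn1, Fmn2, Fmnl1, Fmnl2, Fmnl3 and Inf2. They are 10 of the 24063 genes listed for the tubuloids, and all 10 had counts in at least 1 of the 8 libraries. The family was picked because Fhod3 was lower after doxycycline in these same libraries, so the change in Fhod3 is given as a description without a test, while the other 9 members are read from a fit across all genes. Tubuloids are tubule-like structures that form in Matrigel, a basement membrane gel, from fragments of mouse kidney, here taken at postnatal day 7 to 10 according to the sample descriptions. All libraries, controls included, carried the genotype Pkd2fl/fl Pax8rtTA TetOCre mTmG. In these cells doxycycline (DOX) switches on Cre, which removes floxed sequence from Pkd2, the gene for the cation channel polycystin-2 that is mutated in polycystic kidney disease, and the mTmG reporter turns from red to green membrane fluorescence. The control group received the vehicle, dimethyl sulfoxide (DMSO). Treatment began on day 3 of culture and lasted 3 days, RNA was taken on day 7, and each group had 4 libraries, named here by the numbers in their titles (DMSO 15, 20, 3 and 5, and DOX 9, 21, 19 and 12).

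The model has limits that bear on every value below. The Pax8 promoter limits Cre to renal epithelia, so other cells in the cultures keep Pkd2. DOX was given to cells that all carried Cre, so an effect of the drug and an effect of losing Pkd2 cannot be told apart. The descriptions do not tie libraries to animals, so the p-values measure the spread between these cultures. In RNA from whole cultures, fewer cells of a type and less RNA per cell cannot be told apart either.

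Formins are dimeric proteins that start unbranched actin filaments and stay at the growing barbed end while profilin delivers actin subunits. Most are held inactive by contacts within the protein until an upstream signal releases them, and they help to build stress fibres, filopodia, cell junctions and sarcomeres. In epithelia such filaments brace the apical junctions and the cell cortex, and the formin gene Fmn1 and the INF2 protein are known for roles in kidney and limb development and in podocyte disease.

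Summed transcript counts ran from 63922677 to 102716313 per library. Gene detection set 1 library of each group apart, since 13243 genes were detected in DMSO 20 and 13599 in DOX 19, against 17054 to 17903 in each of the other 6. Pkd2 stood at 6130 ± 1114 normalised counts in DMSO and 4946 ± 771.9 in DOX (SD, n = 4 each). Its log2 fold change was -0.31 with a standard error (SE) of 0.21, and the adjusted p of DESeq2 was 0.999. Counts over the whole transcript include exons outside the floxed part and transcripts of cells without Cre, so this value does not measure recombination.

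Fhod3 (chr18:24708388-25133507, plus strand, mm10) encodes an FHOD formin best known for sarcomere assembly in heart muscle. Its normalised counts, which are counts divided by the size factor of the library, were 1715, 2574, 1473 and 2029 in DMSO 15, 20, 3 and 5. They were 550.1, 302, 227 and 589 in DOX 9, 21, 19 and 12. Every DOX library lay below every DMSO library, the highest DMSO value was DMSO 20 and the lowest DOX value was DOX 19. The group means were 1947 ± 475.4 and 417 ± 179.6 (SD, n = 4 each). DOX was 4.66-fold lower, which is -2.22 on the log2 scale with an SE of 0.39. As both extremes were libraries with few detected genes, the fold change was also taken without them and was -1.84. Groups did not overlap for 1 of the 10 members, Fhod3, and for 2.72% of the 17550 genes with a mean normalised count of at least 2 (1.08% with DOX lower), and nothing is read from this because the family was chosen from the same contrast. Summed TPM of 7 macrophage markers also did not overlap between the groups (15.9 to 29.5 in DMSO and 0.00680 to 12.2 in DOX), and its part in the Fhod3 difference was not tested. The most abundant genes of that list, Cd68 and Ptprc, each overlapped between the groups.

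**Figure D1:**
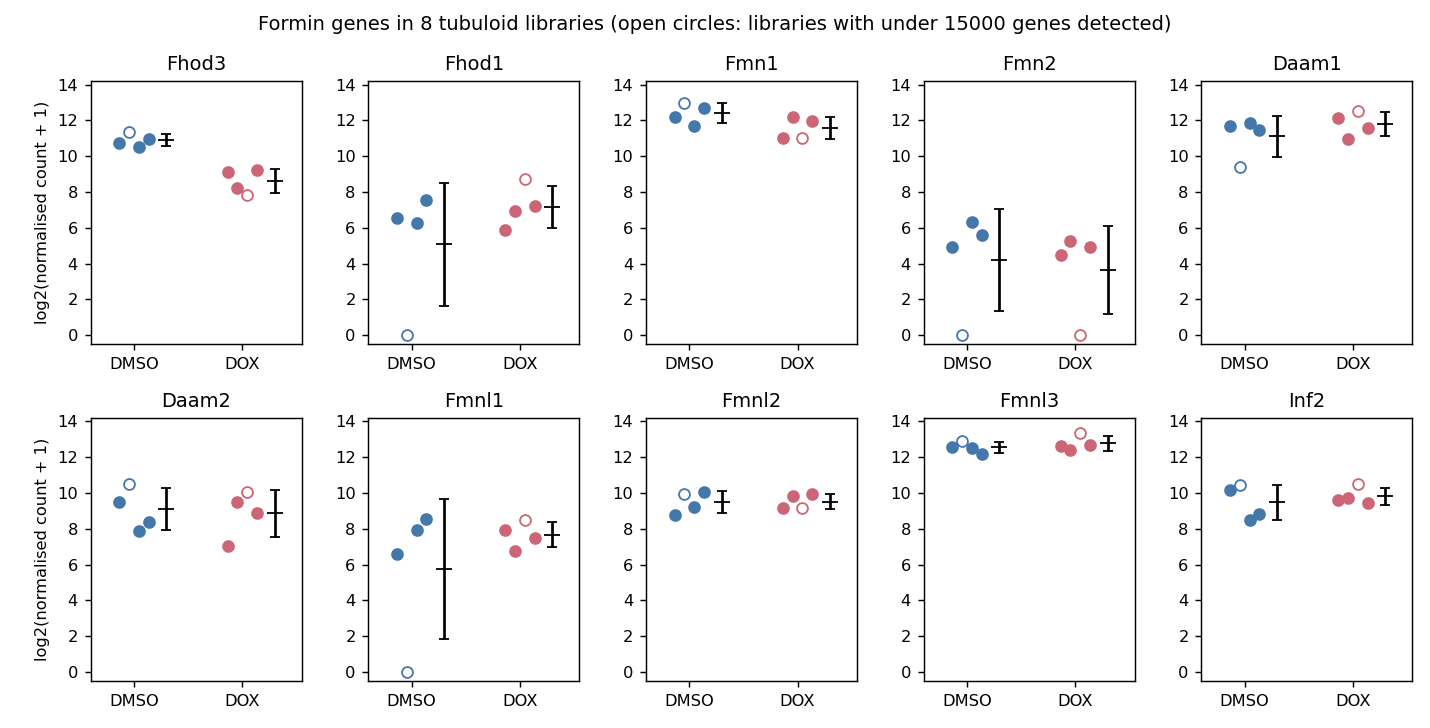
Normalised counts of the 10 formins on a log2(count + 1) scale, 1 panel per gene, with 1 point per library, the 4 DMSO libraries at the left and the 4 DOX libraries at the right. Black bars show the mean and SD, and open circles mark DMSO 20 and DOX 19, the libraries with under 15000 genes detected. Fhod3 is the panel in which the groups do not overlap, and Fhod1, Fmnl1 and Fmn2 lie at 0 in DMSO 20.

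Fhod1 (chr8:105329160-105348062, minus strand), the paralog that acts on stress fibres outside muscle, was weakly expressed. Its normalised counts were 93.3, 0, 75.4 and 185 in the DMSO libraries and 57.7, 119.7, 423 and 149 in the DOX libraries, so the groups overlapped. The log2 fold change was 1.08 with an SE of 1.22 and an adjusted p of 0.999 in DESeq2. The 0 of DMSO 20 allows a level of up to 3.84 normalised counts, the value of 3 counts in that library, and DMSO 20 stood apart from the other 3 DMSO libraries. Without both libraries of low gene detection the log2 fold change turned to -0.10.

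Among the formins proper, Fmn1 (chr2:113327664-113716768, plus strand), linked to adherens junctions and to limb and kidney development, had the smallest p of the 9 members other than Fhod3. Its normalised counts were 4726, 8013, 3361 and 6647 in DMSO and 2093, 4676, 2106 and 3989 in DOX. The DOX libraries were lower on average, but DOX 21 and DOX 12 exceeded DMSO 3, so the groups overlapped. The log2 fold change was -0.82 with an SE of 0.41, which reached an unadjusted p of 0.0469 in DESeq2 and of 0.0495 in edgeR but an adjusted p of 0.943 and 0.999. Without both libraries of low detection it was -0.43, and DMSO 20 was the highest DMSO library.

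Fmn2 (chr1:174501752-174822729, plus strand), a formin of oocytes and neurons, was the lowest of the 10. Its normalised counts were 29.1, 0, 78.2 and 48.4 in DMSO and 21.2, 36.8, 0 and 29.2 in DOX. The groups overlapped, and at this depth no difference was detectable (log2 fold change -0.84, SE 1.63, adjusted p of DESeq2 0.999). The zeros of DMSO 20 and DOX 19 allow up to 3.84 and 3.38 normalised counts.

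The DAAM formins are effectors of Dishevelled in planar cell polarity. Daam1 (chr12:71830950-71992376, plus strand) had 3271, 679.9, 3748 and 2806 normalised counts in DMSO and 4527, 2001, 5891 and 3050 in DOX. DMSO 20 was far below the other DMSO libraries, and the DOX range enclosed these, so the groups overlapped. The log2 fold change of 0.56 (SE 0.56, adjusted p of DESeq2 0.999) was -0.02 without both libraries of low detection. Daam2 (chr17:49456022-49564459, minus strand) had 728, 1464, 237 and 335 normalised counts in DMSO and 129.9, 713, 1080 and 469 in DOX. Here too the groups overlapped, with DMSO 20 and DOX 19 highest in their groups, and the log2 fold change was -0.21 (SE 0.76, adjusted p of DESeq2 0.999). It was 0.46 without DMSO 20, 0.13 without DOX 9 and 0.02 without both libraries of low detection.

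The FMNL formins act at the leading edge and in filopodia. Fmnl3 (chr15:99317210-99370521, minus strand) was the most abundant of the 10, with 6066, 7709, 5765 and 4654 normalised counts in DMSO and 6324, 5490, 10600 and 6436 in DOX. The groups overlapped, DOX 19 was the highest library, and the log2 fold change was 0.25 (SE 0.29, adjusted p of DESeq2 0.999), or 0.02 without DOX 19. Its spread within groups was 20.9% of the mean in DMSO and 31.9% in DOX, against 86.1% and 86.4% for Fhod1. Fmnl2 (chr2:52857717-53134202, plus strand), a formin of cell junctions and lamellipodia, had nearly equal means of 761 ± 295 in DMSO and 754 ± 218 in DOX (log2 fold change -0.01, SE 0.40, adjusted p of DESeq2 0.999). Fmnl1 (chr11:103171004-103198902, plus strand), the form typical of blood cells, lay between 0 and 367 in DMSO and between 109 and 352 in DOX (log2 fold change 0.32, SE 1.21, adjusted p of DESeq2 0.999). Without both libraries of low detection, Fmnl1 was at -0.38 and Fmnl2 at 0.27.

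Inf2 (chr12:112588744-112615557, plus strand) encodes a formin that can both build and sever filaments and is mutated in a form of podocyte disease. Its normalised counts were 1155, 1365, 353 and 459.5 in DMSO and 790.3, 836, 1437 and 686 in DOX. DMSO 3 and DMSO 5 were the lowest libraries, DOX 19 was the highest and the groups overlapped (log2 fold change 0.17, SE 0.52, adjusted p of DESeq2 0.999). Single libraries set its direction, with -0.10 without DOX 19, -0.08 without DMSO 3, -0.03 without DMSO 5 and 0.51 without DMSO 20.

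None of the 9 members other than Fhod3 passed the call rule, an adjusted p no higher than 0.05 together with a 1.5-fold or larger difference in DESeq2. In the same test 0.147% of the 17011 genes with an adjusted p were called, 0.0647% lower and 0.0823% higher in DOX. Fhod3 is among those lower, which is how the family came to be chosen, so it is left out of the counts. With edgeR 0 of the 9 were called, as were 0% of the 15562 genes it tested, Fhod3 included. At an unadjusted p under 0.05, 1 of the 9 passed in DESeq2, Fmn1, where 4.67% of genes did, and the same 1 passed in edgeR, where 3.06% did. The 9 members had 5 log2 fold changes above 0 and 4 below, from -0.84 to 1.08, with a median of 0.17, against a median of -0.07 over all genes tested.

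**Figure D2:**
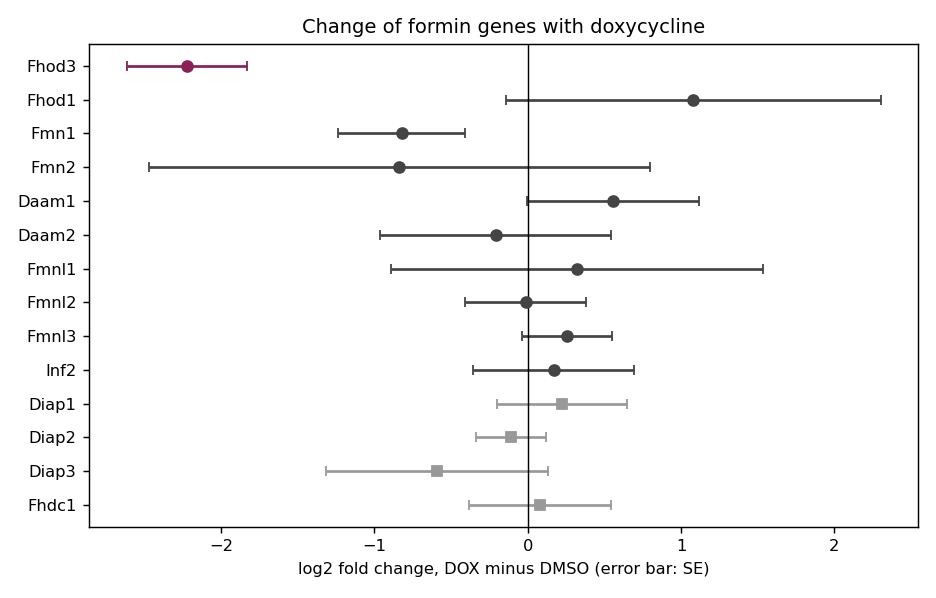
Log2 fold change, DOX minus DMSO, with its SE for the 10 formins (circles, Fhod3 in purple) and for 4 other formins (squares). The interval of Fhod3 lies at -2.22 and apart from 0, that of Fmn1 at -0.82, and the intervals of 1 SE of all other genes shown cover 0.

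Levels were compared between genes on the TPM scale, which is per transcript length. Summed over transcripts, the mean TPM over all 8 libraries was 36.6 for Fmnl3, 13.1 for Daam1, 9.99 for Fmn1, 4.77 for Fhod3 and 4.66 for Inf2. It was 3.24 for Fmnl2, 2.60 for Daam2, 1.27 for Fmnl1, 0.855 for Fhod1 and 0.113 for Fmn2. Neighbours in this order were compared library by library on log2(TPM + 0.1) with an exact two-sided permutation test that flips the sign of each library's difference, adjusted over the 7 pairs that do not hold Fhod3, a choice made after seeing the data. The smallest p it can give with 8 libraries is 0.00781.

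None of the 7 pairs passed at an adjusted p of 0.05. Fmnl3 was above Daam1 in 8 of 8 libraries, by 1.63 on the log2 scale (SD 0.96, exact permutation p = 0.00781, adjusted 0.0547). Fhod1 was above Fmn2 in 7 of 8 libraries, by 1.81 (exact permutation p = 0.0156, adjusted 0.0547). The other 5 had adjusted p-values from 0.219 to 0.516 in the exact permutation test. Both pairs that hold Fhod3 are given without a test, since its lower DOX values enter them: Fmn1 was above Fhod3 in 8 of 8 libraries, by 1.33 on the log2 scale (SD 0.93), and Fhod3 was above Inf2 in 4 of 8.

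The order depends on how isoforms are counted, since a gene with several transcripts gains in a sum if a read shared by isoforms was counted for each of them, and how such reads were counted is not given in the sources used here. Taking for each gene the transcript with the highest TPM in each library, the order became Fmnl3, Inf2, Daam1, Fmn1, Fmnl2, Daam2, Fhod3, Fhod1, Fmnl1 and Fmn2. In that order Fmnl3 was above Inf2 by 3.04 in 8 of 8 libraries, but none of its 7 pairs without Fhod3 passed the exact permutation test after adjustment over them (0.0547 for Fmnl3 and Inf2). In either reading Fhod3 ranked lower in DOX. By group mean of the summed TPM it was the 4th of 10 in DMSO, at 7.77 ± 2.67, and the 7th in DOX, at 1.77 ± 0.893. By the transcript with the highest TPM it was the 7th and the 9th.

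Fmnl3 held the largest share of the formin mRNA in every library. Summed over transcripts it took 43.4% ± 5.12 of the TPM of the 10 in DMSO and 50.9% ± 2.63 in DOX, and Fhod3 took 10.2% ± 1.48 and 2.33% ± 1.17 (SD, n = 4 each). By the transcript with the highest TPM Fmnl3 took 59.1% ± 5.15 of the summed TPM of the 10 in DMSO and 64.7% ± 3.35 in DOX (SD, n = 4 each). On that scale Fhod3 took 4.20%, 4.81%, 4.21% and 5.75% in the DMSO libraries and 1.49%, 0.824%, 0.365% and 1.48% in the DOX libraries, so its share in every DOX library lay below that in every DMSO library. The TPM of the 10 on that scale was 55.4 ± 14.8 in DMSO and 62.6 ± 15.8 in DOX. The total of formin mRNA overlapped between the groups. The share of Fhod3 did not, but this follows from the choice of Fhod3 in the same contrast and is no separate result. As shares are parts of a whole, a lower share of Fhod3 also raises the summed share of the rest.

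**Figure D3:**
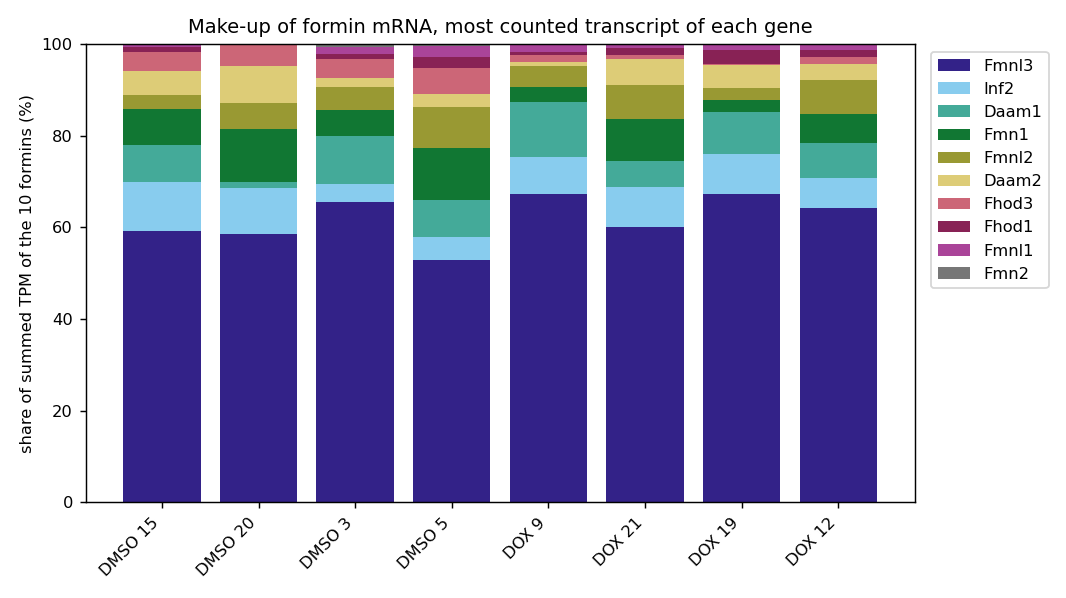
Share of each of the 10 formins in their summed TPM, 1 stacked bar per library, counting for each gene the transcript with the highest TPM in that library, as a percent of the total. Fmnl3 fills more than any other gene in every bar, and the Fhod3 band is narrower in the 4 DOX bars, from 0.365% to 1.49%, than in the 4 DMSO bars, from 4.20% to 5.75%.

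Fhod3 has 3 annotated transcripts in the deposited counts, NM_175276 of 6237 nucleotides, NM_001289655 of 6141 and NM_001289654 of 5784. NM_175276 had 573, 690, 533 and 680 counts in the DMSO libraries and 216, 97, 67 and 279 in the DOX libraries. The other transcripts stayed within 41 counts of it in each library, and the lowest was 94.1% to 100% of the highest. Each held about the same share of the Fhod3 counts in both groups, NM_175276 33.8% in DMSO and 33.5% in DOX, NM_001289655 33.5% and 33.4%, and NM_001289654 32.7% and 33.1%. Their log2 fold changes were -2.24, -2.23 and -2.21. Counts this close do not separate the isoforms.

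Fmn1, in contrast, has 5 transcripts with unequal counts. NM_001285459 of 11147 nucleotides took 41.5% ± 5.34 of its counts in DMSO and 42.7% ± 4.67 in DOX, and NM_010230 took 25.5% and 23.9%. NM_001287817 and NM_001287818, the shortest forms, took 4.97% and 4.87% in DMSO and 5.94% and 5.88% in DOX. The log2 fold changes of the 5 lay between -0.92 and -0.51, and none had an adjusted p of DESeq2 below 0.759. Daam1 behaved like Fhod3, with 3 transcripts within 93.4% to 99.4% of one another, and both transcripts of Fmnl1 had identical counts in every library.

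**Figure D4:**
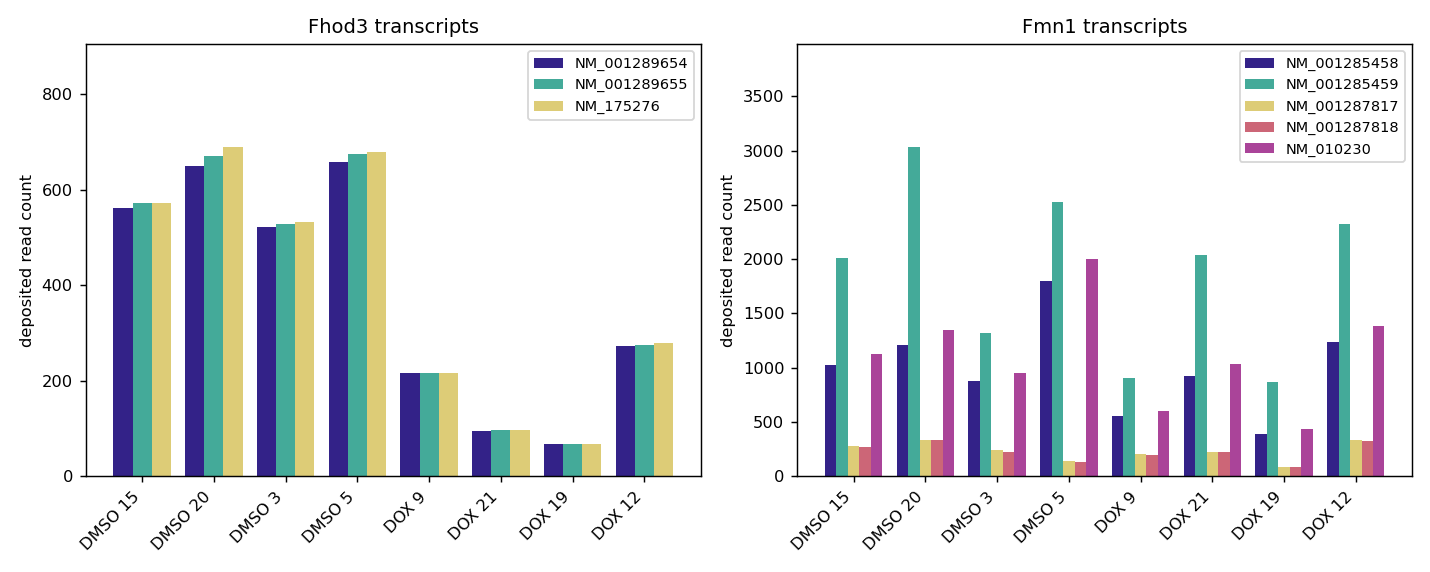
Deposited read counts of the 3 Fhod3 transcripts (left) and the 5 Fmn1 transcripts (right) in each library, 1 bar per transcript. The 3 Fhod3 bars are nearly level within each library and shorter in the 4 DOX libraries, whereas NM_001285459 is the tallest Fmn1 bar in all 8 libraries.

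Some members share exonic bases with a gene on the opposite strand, and the library kit does not mark strand, so reads from both genes cannot be told apart there. For Fhod3 this is 309 of 7251 exonic bases, shared with Gm9955. For Fmn1 it is 449 and 31 of 15397 bases, shared with Gm13966 and Gm13963, for Fhod1 it is 116 of 4666, shared with Tmem208, and for Fmnl1 it is 120 of 4886, shared with Gm20511.

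Genes that varied with Fhod3 between libraries of the same group were sought among 13247 genes with a mean normalised count of at least 100. Pearson's r was taken over the 8 libraries of log2(normalised count + 1) after each group mean was removed, which leaves the DOX against DMSO difference out. These are the extremes of many genes over few libraries, in which DMSO 20 and DOX 19 hold the highest and the lowest Fhod3 value, and they describe these libraries only. Genes with the highest r included Zfp319, a zinc finger gene (0.953), Cbx2, a Polycomb subunit (0.951), Klc2, a kinesin light chain (0.944), and Pappa2, a protease that cuts IGF-binding proteins (0.941). The 3 with the lowest were Psen2 (-0.968), Lsm8, an RNA-binding protein (-0.966), and Dpm1, a dolichol-phosphate mannosyltransferase subunit (-0.957).

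Psen2, a catalytic subunit of gamma-secretase, ran opposite to Fhod3 between the groups as well. Its normalised counts were 2202, 1828, 2375 and 2037 in the DMSO libraries and 4051, 6539, 9106 and 3431 in the DOX libraries. DOX 19, the lowest Fhod3 library, was the highest for Psen2, and DMSO 20, the highest Fhod3 library, was the lowest. Its log2 fold change was 1.45 with an adjusted p of DESeq2 of 0.0310, and without both libraries of low detection the r within groups was -0.972. None of the other genes named for their r was called. Of the other members, Fmn2 lay under the count minimum and was not compared, and the remaining 8 had r with Fhod3 within groups from -0.533 for Fhod1 to 0.435 for Fmnl2.

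**Figure D5:**
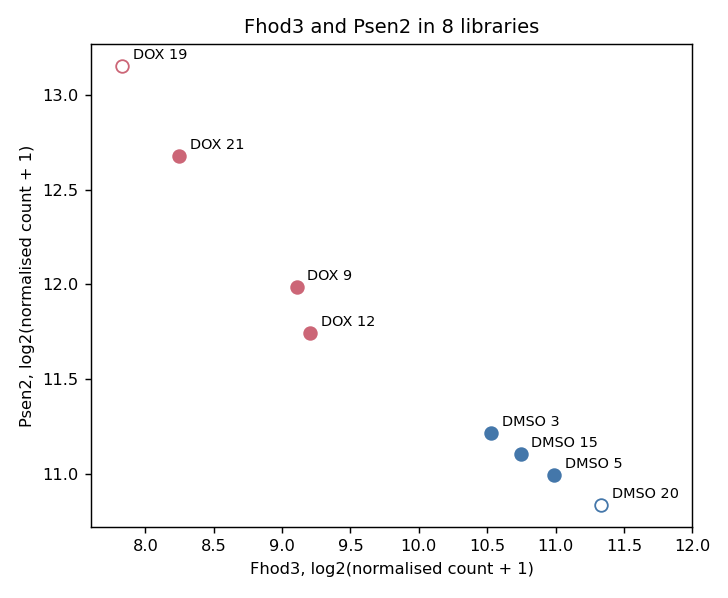
Psen2 against Fhod3 in the 8 libraries, both as log2(normalised count + 1), blue for DMSO and red for DOX, with open circles for the libraries of low gene detection. Every step to a lower Fhod3 value goes with a higher Psen2 value, from DMSO 20 at the lower right to DOX 19 at the upper left.

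The partners of formins were taken from lists of 91 genes with counts, outside the 10 members, that hold, among others, further formins, monomer binders, Arp2/3 subunits, its activators, WH2 nucleators, capping and severing factors, bundlers with tropomyosins, and the actin-sensing factors MRTF and SRF with their targets. None was called in either direction by DESeq2, which gave 88 of them an adjusted p, or by edgeR, which tested 87. At an unadjusted p under 0.05, 6 passed in DESeq2 and 3 in edgeR, where 4.67% and 3.06% of all genes did. The log2 fold changes were above 0 for 33 and below 0 for 58, with a median of -0.13 against -0.07 for all genes tested. The balance of directions turned without DMSO 15, the library richest in mural and stromal markers, to 53 above and 38 below with a median of 0.07, against -0.04 for all genes. Without it the median was 0.22 for the monomer binders and 0.10 for the Arp2/3 genes.

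The remaining formins gave no call. Diaph2, of the Diaphanous group, had 1615 ± 286 normalised counts in DMSO and 1500 ± 255 in DOX (SD, n = 4 each; log2 fold change -0.11). Diaph1 was at 444 ± 223 and 519 ± 134 (0.22), and Fhdc1, a formin of microtubules and cilia, at 1244 ± 392 and 1316 ± 733 (0.08). All had an adjusted p of 0.999 in DESeq2. The list is spelled Diap1 to Diap3 in the counts.

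Among the 9 profilins and other monomer binders the median log2 fold change was -0.09 and none passed unadjusted. Pfn1, the main profilin, was at 0.17, Tmsb4x, a thymosin that stores actin monomers, at -0.15, and Tmsb10 at -0.57 (SE 0.40). Without DMSO 15 these were 0.39, 0.04 and -0.16.

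Of the alternative nucleators, 1 of the 10 Arp2/3 genes passed unadjusted, and the median was -0.01. Arpc1b, a subunit of the complex, was higher in every DOX library, at 35080 ± 2293 against 27140 ± 4355 (log2 fold change 0.37, adjusted p of DESeq2 0.873). Actr3 and Arpc2 were at -0.04 and 0.16. Of the 12 WASP and WAVE factors 1 passed unadjusted, with a median of -0.09. That gene was Abi2, a WAVE complex subunit singled out after its values were seen, with 9072 to 11550 in DMSO and 11770 to 15030 in DOX (log2 fold change 0.41, adjusted p of DESeq2 0.597). Of the 7 WH2 nucleators, the most abundant was Spire1, which pairs with FMN formins, at 4113 ± 1493 in DMSO and 4093 ± 1337 in DOX, a log2 fold change of -0.01. The gene of that list to pass unadjusted was Lmod1, a muscle leiomodin also singled out afterwards, at -3.03 (adjusted p of DESeq2 0.868), with values from 9.07 to 570 in DMSO.

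Among 12 capping, severing and elongation factors, 2 passed unadjusted, both lower in DOX and both singled out after their values were seen. Dstn, an actin-depolymerising factor, had 33810 to 46960 normalised counts in DMSO and 27260 to 30780 in DOX, without overlap (log2 fold change -0.41, adjusted p of DESeq2 0.643). Enah, which speeds filament growth at barbed ends, was at -0.56 (adjusted p of DESeq2 0.843). The most abundant of that list, Capzb, Cfl1 and Gsn, had log2 fold changes of 0.14, 0.00 and 0.15, and of 0.31, 0.22 and 0.67 without DMSO 15.

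Of 14 bundlers and tropomyosins, 11 were below 0 with a median of -0.21, and none passed unadjusted. Tpm1 was at -0.57 (SE 0.38). Without DMSO 15, 6 of the 14 were below 0, the median was 0.07 and Tpm1 was at -0.16. The list of 12 genes around MRTF and SRF had a median of -0.49, with 1 passing unadjusted. Srf and the MRTF genes Mkl1 and Mkl2 were at 0.18, 0.22 and 0.25, and the 9 target genes were below 0, these factors and Cnn1 being named after their values were seen. Acta2, Cnn1 and Tagln among these are also mural markers, whose summed level was highest in DMSO 15. Tagln, a smooth muscle actin-binding protein, had 128700 normalised counts in DMSO 15 against 2263 to 24750 in the other DMSO libraries and 8250 to 14270 in DOX (log2 fold change -1.86, adjusted p of DESeq2 0.943). Actb and Actg1, the cytoplasmic actins, were at -0.18 and -0.26. Without DMSO 15, 4 of the 9 target genes were below 0, the median of the 12 was 0.22, Tagln was at -0.08, and Actb and Actg1 were at 0.62 and 0.25, so 5 of the 9 turned.

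Cell type markers were read beside these values, as TPM summed over transcripts and over each list. The limit on shared isoform reads given above for summed TPM holds here too. All 8 epithelial tubule markers were expressed, with 560 to 2628 TPM in DMSO and 779 to 1742 in DOX, so the labelled tissue was met by its markers. Stromal markers reached 350.1 to 3610 TPM and 769.9 to 1281, and mural markers 184 to 3323 and 434 to 612, with the highest value of both in DMSO 15. Endothelial markers summed to 137 to 493 TPM in DMSO and 176 to 871 in DOX, mostly from Plvap and Emcn, whereas Pecam1 and Cdh5 were near 0 in all libraries. Podocyte markers summed to 53.1 to 170 in DMSO and 50.8 to 512 in DOX. The log2 fold changes were below 0 for 8 of 8 tubule markers and 7 of 8 stromal markers and above 0 for 7 of 7 podocyte markers, and none of these genes was called.

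The macrophage list was the one whose summed level did not overlap between the groups, as for Fhod3. All 7 of its log2 fold changes were below 0 and none was called. Ptprc and Cd68 gave most of the summed TPM in DMSO 20, 3 and 5, while Emr1, C1qa and C1qb were at 0 in all libraries but DMSO 15. Ptprc, at 0.262 to 22.3 TPM in DMSO and 0 to 8.30 in DOX, overlapped between the groups. So did Cd68, at 3.265 to 23.3 and 0 to 9.11. Csf1r was at most 0.431 TPM in any library. Muscle markers, of interest because FHOD3 is a heart muscle protein, summed to 42.4 to 338 TPM in DMSO and 78.2 to 345 in DOX, nearly all from Tnnt2, and Myh7 and Mybpc3 were at 0 in all libraries. The mean TPM of Tnnt2 over all libraries was 172 summed over transcripts but 20.5 for its transcript with the highest TPM. Markers of adrenal cortex, 5.13 to 47.9 and 0.951 to 17.0 TPM, and of neurons and glia, 5.21 to 12.8 and 2.28 to 9.70 TPM, were low in both groups, though the adrenal gene Cyp11a1 was called lower in DOX.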

How the data were processed

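RNA from 4 DMSO and 4 DOX tubuloid cultures was sequenced by the authors as poly-A selected SMART-Seq v4 libraries. The submitters' processing notes name STAR, featureCounts and DESeq2 and the builds mm10 and GRCm38, with versions not given in the sources used here. The authors deposited, per RefSeq transcript, a whole-number read count, an FPKM value (per length and per total) and a TPM value rescaled to a fixed sum. Counts were used for comparing the groups, TPM for levels and their exact permutation test, and FPKM only to derive transcript lengths.

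Counts and TPM of 33068 transcripts were summed by symbol to 24063 genes. The members and the gene lists were chosen with earlier results of these data known. Genes described singly were taken from the 10 members, Pkd2, the 5 most and 3 least alike to Fhod3, the 3 most abundant of each pathway list, and the 2 most abundant of each marker list (1 gene alike to Fhod3 and 1 pathway list are not reported here), and any other gene named is said to have been singled out afterwards, except markers named for being at or near 0 or called. Of 93 pathway genes 92 were matched. DOX and DMSO were compared on all genes with DESeq2 1.42.0 under R 4.3.3 (Wald test, median-of-ratios size factors, Cook's filter, independent filtering at alpha 0.1, Benjamini-Hochberg adjustment), with edgeR 4.0.16 quasi-likelihood and limma 3.58.1 voom, TMM size factors, other filters and features, and libraries left out as alternatives. Calls needed an adjusted p no higher than 0.05 and a 1.5-fold difference. The fits were tested on simulated data, where DESeq2 recovered more of the changed genes than edgeR. It also made many more false calls than edgeR, and more than its adjusted p allows. This limit bears on every DESeq2 call named here. The 28 pairs of libraries differed by a chi-square per degree of freedom of at least 328, so each was counted as 1 sample. Limits of 3 counts cover counting error only. Gene positions come from NCBI RefSeq for GRCm38, the assembly of mm10.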

Additional observations from a re-analysis of the deposited data

Results flagged for a closer look

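In 20 groups of 4 libraries, 2 for each of the 10 formins, 3 had 1 library far from the other 3 on log2(normalised count + 1), where chance gives about 1 in 20 groups, or 1 here. The 3 values come from DMSO 20 and DOX 19, both of low gene detection, so they are not separate draws. For Fhod1, DMSO 20 was at 0 while the others lay between 6.26 and 7.54, a gap of 0.8293 of the group's range. For Daam1, DMSO 20 was at 9.41 against 11.45 to 11.87, a gap of 0.830. For Fmn2, DOX 19 was at 0 against 4.47 to 5.24, a gap of 0.854. The part of low gene detection in these values was not tested.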

How the results depend on the processing

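No paired analysis was possible because the library numbers are not shared between the groups. The calls of Fhod3 rest on the libraries that led to its choice and are no support for it: it was the 1 member called in the reported fit and in 15 of 17 alternatives, and edgeR and limma-voom called 0 members. Its log2 fold change ran from -2.25 to -1.84 over the other settings and from -2.44 to -2.01 leaving out 1 library at a time. The related genes gave 0 calls in all 17, with 79 to 91 of them fitted, but the balance of their directions rests on DMSO 15 (58 of 91 below 0 with it, 38 without, chosen after seeing the data). Without the libraries of low gene detection the log2 fold changes reversed to -0.10 for Fhod1, -0.018 for Daam1, 0.016 for Daam2, -0.38 for Fmnl1 and 0.27 for Fmnl2, and limma-voom gave 0.088 for Fmnl2, 2.07 for Fhod1 and 1.89 for Fmnl1. Leaving out 1 library at a time gave 0.30 to 1.74 for Fhod1, -1.25 to -0.24 for Fmn2, 0.24 to 0.78 for Daam1, 0.02 to 0.39 for Fmnl3, -0.65 to 0.46 for Daam2, -0.093 to 0.97 for Fmnl1, -0.21 to 0.18 for Fmnl2 and -0.10 to 0.51 for Inf2. The smallest adjusted p of the 9 other members in any setting was 0.560, for Fmn1. Of the 9 neighbouring pairs in the order of levels, 3 passed with the pairs that hold Fhod3, which are no test, and 0 passed without those pairs (chosen after seeing the data), 0 without the libraries of low detection, and 0 to 3 leaving out 1 library (3 without DMSO 20). Fewer libraries raise the smallest possible p, so these counts do not measure stability. Keeping the pairs but using the transcript with the highest TPM, 3 passed with and 0 without the pairs that hold Fhod3. Of the 5 genes most like Fhod3, 2 were shared with a count minimum of 10, 0 without the libraries of low detection and 1 by rank correlation. The shares of the Fhod3 transcripts differed between DOX and DMSO by 0.22 to 0.51, -0.13 to -0.001 and -0.43 to -0.16 percentage points leaving out 1 library. Low counts limit Fhod1, Fmnl1 and Fmn2, which could not be fitted with at least 10 counts in every library.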
